A study of Mus musculus with 16 samples.

Results

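The depot difference in fat of obese mice fed an extract of the plant Artemisia scoparia was read from 8 of the 16 Illumina bead arrays of the study. They were the 4 arrays of inguinal fat (iWAT) and the 4 arrays of epididymal fat (eWAT) of scoparia mice, and each of the animal numbers 16, 17, 18 and 20 stood on 1 array per depot and was read as 1 mouse. All were male C57BL/6J mice with diet-induced obesity, housed singly, 17 weeks old when the diets began and 21 weeks old after 4 weeks. Every mouse of the study received high-fat chow, with fat supplying 60% of the calories. The scoparia group ate it with 1% by weight of an ethanolic extract of the plant, and the control group (mice 1 to 4, the other 8 arrays) ate it without the extract. RNA came from whole tissue, so each value averages all cells of a depot. In such bulk samples, fewer cells of a type and less RNA per cell cannot be told apart.

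White fat stores triglyceride and releases fatty acids, and its depots differ in origin. Inguinal fat is a subcutaneous depot that holds a lymph node and lies against the hind limb muscle, and in mice it can form thermogenic (beige) adipocytes. Epididymal fat is a visceral depot covered by mesothelium, the thin epithelium of the body cavities, and in obesity it gathers macrophages around dying adipocytes. Depots also keep a positional code of developmental transcription factors, among them the Hox genes.

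Values are log2 intensities after background correction and quantile normalization. Between 52.4% and 56.2% of the probes were detected on each of the 8 arrays (detection p under 0.05), and the number of arrays limits the precision. The eWAT arrays resembled each other closely, with a mean correlation to their own group of 0.988 to 0.990, against 0.958 to 0.981 for iWAT. On the first principal component of the 8 arrays, with 61.2% of the variance, eWAT lay between 30.1 and 38.7. The iWAT arrays of mice 16, 17, 18 and 20 lay at -18.1, -23.8, -36.9 and -56.8. Mouse 20 was thus the farthest from eWAT on that component.

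Of 11050 genes tested with the mouse as a block (limma, Benjamini-Hochberg), 1887 passed an adjusted p of 0.05. That is 17.1%, the background for the list counts of this fit below. Of these, 814 (7.37% of all genes) were higher in iWAT and 1073 (9.71%) were higher in eWAT, and 821 differed at least 2-fold. With arrays scaled to equal medians in place of quantile normalization the split was 595 to 1426, and the median of all genes shifted by -0.108 (log2) from 0.0191. In 1886 of the 1887 genes all 4 mice showed the direction of the mean. The genes were called by a test paired on these same mice, so such agreement is no separate support. For 680 called genes higher in iWAT and 994 higher in eWAT the arrays of the depots did not overlap, together 15.1% of all genes. Called or not, the depots did not overlap for 24.9% of all genes. Leaving out mouse 17 left 801 calls and leaving out mouse 18 left 462, while the count was 1395 without mouse 16 and 2793 without mouse 20. For list counts with a mouse left out or under another setting, the background is the total of that setting, not 17.1%.

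**Figure D1:**
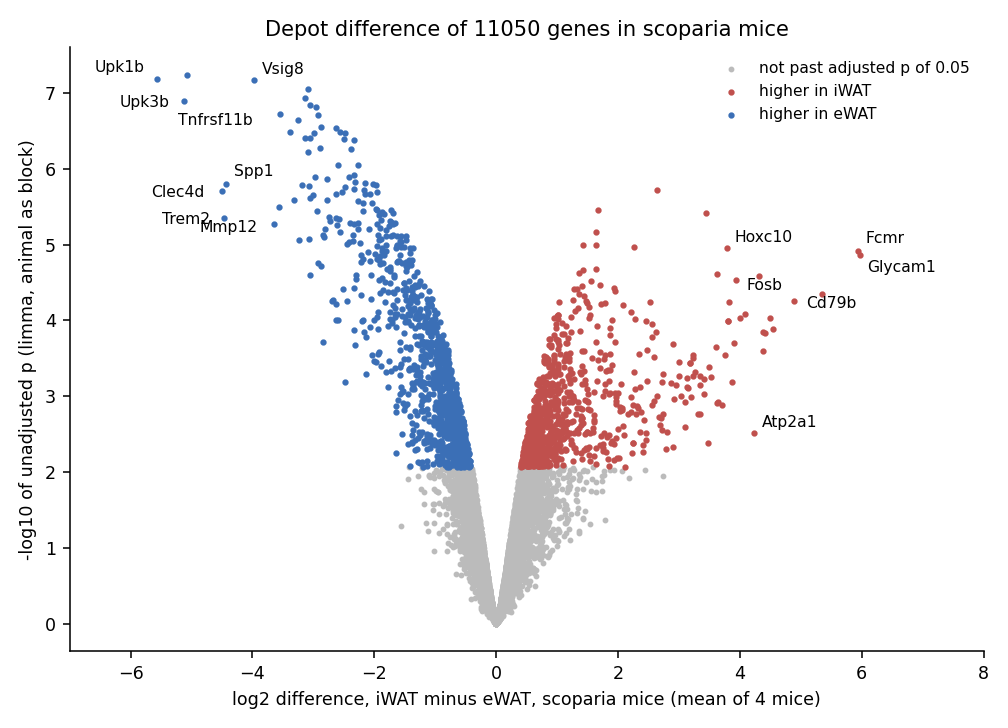
Log2 difference between depots (iWAT minus eWAT, mean of 4 scoparia mice, horizontal axis) against -log10 of the unadjusted p (vertical axis) for 11050 genes, 1 point each. Red points (814) are higher in iWAT and blue points (1073) higher in eWAT past an adjusted p of 0.05. Uroplakin genes Upk1b and Upk3b lie at the far left, and Fcmr and Glycam1 at the far right; the position of a gene detected on no array of 1 depot is the fitted value, not a bound.

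The depot labels were checked against genes that mark each depot. Hoxc10, a posterior Hox gene, read 8.88, 8.83, 8.13 and 7.43 in iWAT of mice 16, 17, 18 and 20, and 4.46, 4.46, 4.47 and 4.71 in their eWAT, where it was detected on no array. The depots did not overlap, and Hoxc10 was at least 9.61-fold higher in iWAT (adjusted p = 0.000996). A bound of this kind sets the mean of the brighter depot against the dimmest detected signal, and is given wherever a gene was detected on no array of 1 depot. Upk1b, a uroplakin of mesothelium, read 9.48, 10.33, 9.70 and 10.43 in eWAT and 4.41, 4.52, 4.33 and 4.38 in iWAT, where it was not detected on any array. It was at least 32.1-fold higher in eWAT (adjusted p = 0.000211). Both genes matched the labels in every mouse. Both are also calls of this same comparison, so the match is no separate support for it. Of 22 epididymal epithelium markers, 18 were on the array and 3 were detected often enough to be tested (Lcn8, Cst11 and Defb15), with differences between -0.11 and 0.05 and no call. Of 8 tested markers of skin and mammary epithelium, 1 was higher in iWAT (Trp63, 0.76 ± 0.13, log2 ± SE) and 1 was higher in eWAT (Krt14).

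Mesothelial genes were mostly higher in eWAT. Of 18 tested members, 15 were higher in eWAT and none in iWAT, with a median of -1.65 against 0.0191 for all genes. Upk3b, the partner uroplakin, read 9.66 to 10.35 in eWAT and 4.64 to 4.97 in iWAT, a difference of -5.13 ± 0.19 or 35.0-fold (adjusted p = 0.000211). Mesothelin (Msln), a surface glycoprotein of mesothelium, was at least 4.85-fold higher in eWAT, and the leucine-rich repeat gene Lrrn4 at least 3.35-fold. Slpi, a secreted inhibitor of neutrophil elastase, read 11.67, 12.72, 12.32 and 13.08 in eWAT against 8.13 to 9.72 in iWAT (-3.33 ± 0.20, adjusted p = 0.000562). The membrane glycoprotein gene Gpm6a differed by -2.70 ± 0.28.

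Keratins of simple epithelium are members of the same list. Krt8 read 6.56, 8.12, 6.86 and 8.05 in eWAT of mice 16, 17, 18 and 20 and 4.83 to 5.22 in iWAT (-2.33 ± 0.28, adjusted p = 0.00411). Its partner Krt18, detected on 3 eWAT arrays, was at least 1.63-fold higher in eWAT and Krt19 at least 2.15-fold. For Krt8, Krt18 and Krt19, mice 17 and 20 had the higher eWAT values. Neither Krt18 nor Krt19 passed without mouse 17 or mouse 18, and Krt18 did not pass without mouse 20. The mean of the 18 mesothelial members was 7.31 in mouse 16, 7.99 in mouse 17, 7.48 in mouse 18 and 8.20 in mouse 20 in eWAT, against 5.74 to 5.86 in iWAT. Krt14, listed under skin and mammary epithelium and also a keratin of stratified epithelium, read 6.88 to 8.82 in eWAT and 4.50 to 4.99 in iWAT (-2.84 ± 0.36, 7.15-fold). Cldn15, Igfbp6 and Sbsn did not pass. Without mouse 17 or mouse 18, 10 and 9 mesothelial members passed.

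The other transcription factors of position split between the depots. Of 28 tested, 6 were higher in iWAT and 6 in eWAT. On the eWAT side stood Tcf21, a factor of visceral mesenchyme, which read 6.17 to 6.90 in eWAT, was detected on no iWAT array and was at least 3.02-fold higher in eWAT (adjusted p = 0.000742). Bnc1, a zinc finger factor of mesothelium, was at least 3.17-fold higher and Isl1, a LIM homeobox factor, at least 2.69-fold higher in eWAT. Meis1, a TALE homeobox partner of Hox proteins, differed by -1.32 ± 0.14, the GATA factor Gata6 by -0.93 ± 0.16 and the forkhead factor Foxc2 by -0.91 ± 0.11. On the iWAT side stood Shox2, a homeobox factor of the limb (at least 2.72-fold), Osr2 (1.95 ± 0.33), the LIM homeobox factor Lhx8 (1.52 ± 0.16) and Meox2, a mesoderm homeobox factor (0.95 ± 0.13). The Iroquois factors Irx2 and Irx5 were at least 1.41-fold and 1.03-fold higher in iWAT. En1 (0.57, adjusted p = 0.0669) did not pass. Without mouse 18, 2 of the list passed for iWAT and 4 for eWAT.

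Among the Hox genes those called were of paralog groups 9 and 10, toward the posterior end of the clusters. Other posterior members, Hoxb9, Hoxa10, Hoxa11, Hoxc11, Hoxd11, Hoxc12, Hoxd12, Hoxb13 and Hoxd13, were on the array but not tested. Neither Hoxa13 nor Hoxc13 was a call. Of 23 tested Hox genes, 5 were higher in iWAT and none in eWAT, and the median of the list was 0.05. Beside Hoxc10 these were Hoxd10, at least 2.91-fold higher, Hoxc9 (1.20 ± 0.21), Hoxd9 (1.08 ± 0.13) and Hoxa9, at least 1.47-fold higher. Hoxd10 read 6.62, 6.27, 6.47 and 7.02 in iWAT and 4.48 to 4.80 in eWAT. Hoxc10 and Hoxc9 were lowest in the iWAT of mouse 20, whereas Hoxd10 and Hoxd9 were highest there. More anterior members that came near the threshold pointed the other way, with Hoxa5 at -0.71 (adjusted p = 0.0916) and Hoxd4 at -0.34 (adjusted p = 0.0871). Hoxc9 did not pass without mouse 17 or mouse 18 (adjusted p = 0.0685 and 0.0839), and Hoxa9 did not pass without mouse 18 (adjusted p = 0.0631). The count of the list was then 4 and 3.

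**Figure D2:**
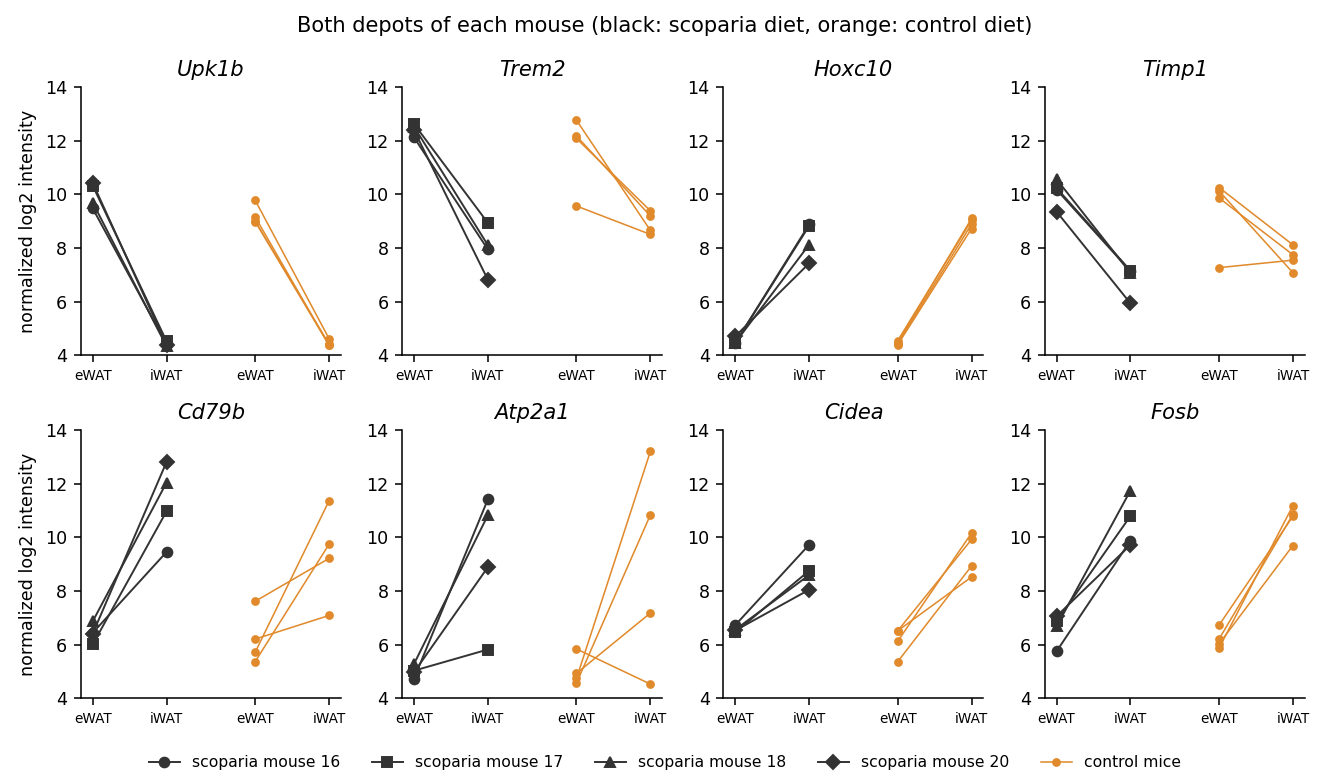
Normalized log2 intensity (vertical axis) of 8 genes in eWAT and iWAT, with a line for each mouse. Black lines are the 4 scoparia mice, with a symbol for each mouse, and orange lines the 4 control mice. Upk1b and Trem2 fall from eWAT to iWAT in every mouse, and Hoxc10 rises in every mouse. Among the scoparia iWAT arrays Hoxc10 runs from 7.43 to 8.88, and Atp2a1 spreads from 5.82 to 11.42.

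Macrophage genes were also mostly higher in eWAT. Of 21 tested markers of lipid-associated macrophages, the lipid-laden cells of obese fat, 16 were higher in eWAT and none in iWAT, with a median of -1.74. Trem2, the lipid-sensing receptor of these cells, read 12.13, 12.63, 12.53 and 12.40 in eWAT and 7.95, 8.94, 8.11 and 6.82 in iWAT. The depots lay far apart, at -4.47 ± 0.30 or 22.1-fold (adjusted p = 0.00071). Spp1 (osteopontin), a secreted matrix protein, read 11.41 to 11.67 in eWAT and 6.15 to 7.92 in iWAT (-4.43 ± 0.25, 21.6-fold). Mmp12, the macrophage elastase, read 13.64 to 14.05 against 9.51 to 11.27 (-3.65 ± 0.25, 12.6-fold). Dcstamp, a protein of macrophage fusion, differed by -2.89 ± 0.14, the beta-glucan receptor Clec7a by -2.63 ± 0.11 and the integrin Itgax (CD11c) by -2.58 ± 0.17. Lpl, Ctsb, Fabp5, Cd36 and Acp5 did not pass. The mean over the list ran from 10.98 to 11.26 in eWAT and from 8.93 to 9.67 in iWAT. The count was 13 to 16 when any 1 mouse was left out.

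Of 20 general macrophage markers, 15 were higher in eWAT and 2 in iWAT, with a median of -1.35. Cd68, a lysosomal glycoprotein, differed by -2.56 ± 0.18 (5.89-fold), the macrophage surface receptor Adgre1 by -2.52 ± 0.15 and the immunoglobulin receptor Fcgr3 by -2.32 ± 0.13. Timd4, a phosphatidylserine receptor of resident macrophages, went the other way and read 7.93, 8.49, 9.15 and 10.10 in iWAT against 5.23 to 5.39 in eWAT (3.62 ± 0.32, 12.3-fold, adjusted p = 0.00161). Marco, a scavenger receptor, was the other member higher in iWAT (2.59). Timd4 and Marco were singled out after their values were seen, and the order of mice for Timd4 in iWAT was that of the lymphocyte lists described below. Among the largest eWAT differences over all genes were also the myeloid C-type lectin Clec4d (-4.51 ± 0.26), the V-set protein Vsig8 (-3.97 ± 0.13), the inhibitory receptor Lilr4b (-3.57 ± 0.23), Tlr13, an endosomal sensor of bacterial ribosomal RNA (-3.39 ± 0.15), Syngr1 (-3.24 ± 0.24) and the dipeptidase Dpep2 (-3.18 ± 0.18). Tnfrsf11b (osteoprotegerin), a decoy receptor for RANK ligand, was at least 9.19-fold higher in eWAT.

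A pair of promoters from the lipid-associated macrophage list is shown because their genes carried large differences and hold the same box. The letters are the 250 bases before a gene start on the gene's strand, from RefSeq (GRCm38.p6). Capitals mark the PU.1 box GAGGAAGT, searched on both strands. Spp1 and Mmp12 each had 2 such windows, and for each a window holding the box was printed. A gene counted as holding a motif if any of its windows did. PU.1 is a lineage factor of macrophages, though not of them alone. The Spp1 window lies at chr5:104434861-104435110 on the plus strand, and the Mmp12 window at chr9:7344147-7344396 on the plus strand holds the box on the reverse strand.
Spp1: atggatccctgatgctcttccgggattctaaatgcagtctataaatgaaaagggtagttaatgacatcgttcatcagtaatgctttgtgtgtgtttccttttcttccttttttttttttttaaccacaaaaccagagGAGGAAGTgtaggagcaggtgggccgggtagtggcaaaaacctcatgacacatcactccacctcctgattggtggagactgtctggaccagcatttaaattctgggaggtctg
Mmp12: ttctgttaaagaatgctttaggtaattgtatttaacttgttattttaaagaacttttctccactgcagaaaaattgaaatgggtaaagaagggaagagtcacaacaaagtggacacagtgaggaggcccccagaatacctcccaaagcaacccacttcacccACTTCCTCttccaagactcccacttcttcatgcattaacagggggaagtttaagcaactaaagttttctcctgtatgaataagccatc
The box was found in 2 of the 16 list members with a window (12.5%) and in 2.79% of 27025 genes with a window. The B cell markers, described below and higher in iWAT, held it in 1 of 8 (12.5%). A site of the factor AP-1, searched in the same way, was found in 2 of the 16 (12.5%) and in 5.16% of all genes. The PU.1 box and the promoters were chosen after values were seen, and a match is not evidence of binding.

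Cytokine and chemokine genes divided by depot. Of 28 tested, 9 were higher in eWAT and 7 in iWAT. Il1rn, the antagonist of the interleukin-1 receptor, differed by -3.14 ± 0.14 (8.79-fold), the acute phase gene Saa3 by -2.67 ± 0.27, and the chemokines Ccl9 and Ccl6 by -2.33 ± 0.13 and -2.33 ± 0.22. Ccl3 and Ccl2, which attract monocytes, differed by -2.31 ± 0.21 and -1.39 ± 0.14. On the iWAT side stood chemokines of lymphoid tissue. Cxcl13, which draws B cells to follicles, read 7.89, 9.87, 10.95 and 11.84 in iWAT of mice 16, 17, 18 and 20 and 5.57 to 6.94 in eWAT (3.70 ± 0.67, adjusted p = 0.0161). Ccl21a, a ligand of Ccr7, read 11.16, 12.16, 12.34 and 13.95 against 8.89 to 11.28 (2.39 ± 0.45). Both were singled out after their values were seen. Without mouse 18 neither passed (adjusted p = 0.0911 and 0.0967), and Cxcl13 did not pass without mouse 17 (adjusted p = 0.0668). The iWAT count of the list was 3 without mouse 17 and 1 without mouse 18. Of 17 complement genes, 7 were higher in eWAT, led by C1qb (-1.69 ± 0.16), C5ar1 (at least 2.45-fold) and C1qc (-1.51 ± 0.18), and 2 were higher in iWAT, among them Cfd (adipsin), a protease made by adipocytes (0.76 ± 0.12). C1qb and C1qc are also members of the general macrophage list. With arrays scaled to equal medians 0 complement genes were higher in iWAT and 9 in eWAT, and without mouse 17 or mouse 18 the eWAT count was 4 and 3.

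B and T cell genes had the highest list medians toward iWAT. Of 13 tested B cell markers, 10 were higher in iWAT and none in eWAT, with a median of 3.35. Of 14 T and NK cell markers, 11 were higher in iWAT, with a median of 2.84. Fcmr, the Fc receptor for IgM, read 10.18, 11.64, 12.69 and 13.43 in iWAT of mice 16, 17, 18 and 20 and 5.92 to 6.22 in eWAT. The difference was 5.93 ± 0.47 (61.0-fold, adjusted p = 0.00106), and the iWAT arrays differed among themselves by more than 3 units. Cd79b, a chain of the B cell receptor, read 9.46, 10.98, 12.05 and 12.82 against 6.01 to 6.87 (4.90 ± 0.50, 29.8-fold). Glycam1, a mucin-like glycoprotein of high endothelial venules, was detected on no eWAT array and was at least 42.4-fold higher in iWAT.

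Other leading iWAT genes included the B cell coactivator Pou2af1 (4.54 ± 0.54), the kinase Blk (4.50 ± 0.50), the inhibitory receptor Btla (4.08 ± 0.45), the chemokine receptor Cxcr5 (3.90 ± 0.50) and Fcrla (3.87 ± 0.61). Ly6d, the receptor for the B cell survival factor BAFF (Tnfrsf13c) and the nuclease Dnase1l3 were at least 17.4-fold, 13.7-fold and 13.3-fold higher in iWAT. Among T cell genes, Cd3d read 8.21, 9.37, 9.88 and 11.34 in iWAT and 5.96 to 6.79 in eWAT (3.41 ± 0.53), and Cd3e differed by 3.23 ± 0.49. Within MHC class II presentation 5 of 15 genes were higher in iWAT. H2-Ob and H2-Oa, which modulate peptide loading in B cells, differed by 4.01 ± 0.45 and 3.23 ± 0.44, and H2-DMb2 was at least 8.69-fold higher. Without mouse 18, 1 of the 15 passed, and Fcrla was no longer called (adjusted p = 0.0687). The classical chains H2-Aa (-0.11), H2-Ab1 (0.09) and H2-Eb1 (0.43) did not pass.

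The mean of the B cell list was 6.73 in iWAT of mouse 16, 7.93 in mouse 17, 8.85 in mouse 18 and 9.77 in mouse 20, against 5.66 to 5.80 in eWAT. The T and NK cell list followed the same order, at 7.57, 8.64, 9.28 and 10.62. Lymphocyte signal was thus highest in the mouse that lay farthest out on the principal component. In the 4 control mice the B cell mean in iWAT ran from 5.59 to 8.36. Without mouse 17 or mouse 18, B cell calls were 7 and 3, and T and NK cell calls 5 and 0. The part of lymph node tissue in these values was not tested.

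**Figure D3:**
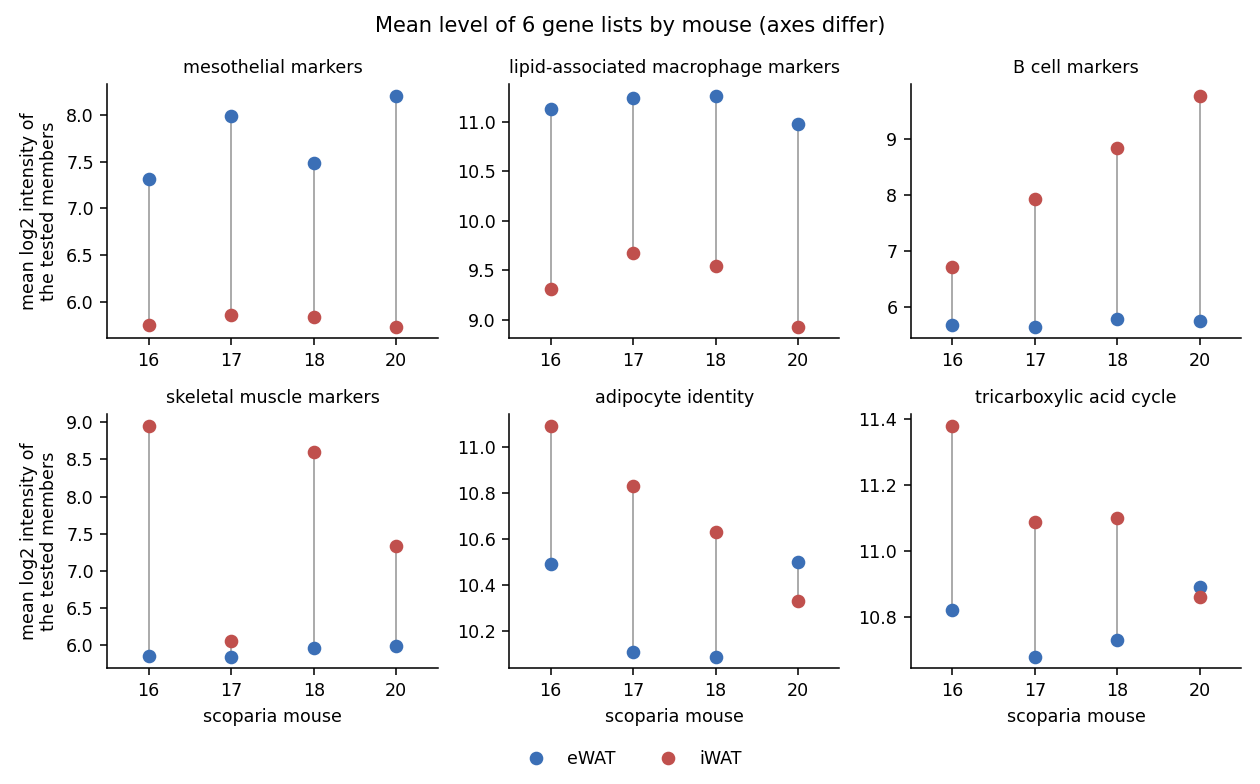
Mean log2 intensity over the tested members of 6 gene lists (vertical axes, which differ) in eWAT (blue) and iWAT (red) of the 4 scoparia mice (horizontal axis). Mesothelial and lipid-associated macrophage means are higher in eWAT in each mouse, the B cell mean in iWAT runs from 6.73 to 9.77, and the adipocyte mean of mouse 20 is lower in iWAT (10.33) than in eWAT (10.50).

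Skeletal muscle genes were high in some iWAT arrays. Of 18 tested, 9 were higher in iWAT and none in eWAT, with a median of 1.64. Atp2a1, the calcium pump of fast muscle, read 11.42, 5.82, 10.83 and 8.89 in iWAT of mice 16, 17, 18 and 20 and 4.73 to 5.28 in eWAT (4.24 ± 0.90, 18.8-fold, adjusted p = 0.0272). Mouse 17 lay near its eWAT value, and the others far above. Tnnc2, a troponin of fast fibres, was at least 8.28-fold higher and titin (Ttn) at least 2.87-fold, and mouse 17 had the lowest iWAT value of both. The list mean in iWAT was 8.95, 6.06, 8.60 and 7.34, against 5.85 to 5.99 in eWAT. Without mouse 16 the calls fell to 2, and without mouse 18 to 1, and Atp2a1 did not pass (adjusted p = 0.0586 and 0.134). The spread over all 16 arrays, without the block, also gave 1. In control iWAT the mean ran from 6.09 to 10.89. Whether muscle was taken with the depot was not tested.

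A pair of promoters from the muscle list is shown since both hold the same box. They are printed as above, with the E-box CAGCTG in capitals. Atp2a1 lies on the minus strand (window chr7:126463074-126463323) and Mylpf, a light chain of fast myosin (2.91, 7.50-fold), on the plus strand (chr7:127211358-127211607).
Atp2a1: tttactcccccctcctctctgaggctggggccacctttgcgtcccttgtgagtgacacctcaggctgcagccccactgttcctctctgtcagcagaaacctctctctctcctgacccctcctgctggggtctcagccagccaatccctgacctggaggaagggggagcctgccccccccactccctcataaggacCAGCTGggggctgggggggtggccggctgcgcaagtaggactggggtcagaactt
Mylpf: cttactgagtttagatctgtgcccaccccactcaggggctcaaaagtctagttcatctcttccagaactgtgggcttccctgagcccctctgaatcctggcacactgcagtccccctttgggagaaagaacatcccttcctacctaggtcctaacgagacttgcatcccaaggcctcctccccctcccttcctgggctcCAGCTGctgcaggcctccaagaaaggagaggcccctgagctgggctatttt
The letters of this E-box read alike on both strands. It was found in 7 of 15 muscle genes with a window (46.7%) and in 14.7% of all 27025. Of the 16 lipid-associated macrophage genes with a window, 5 held it (31.2%), so it was not particular to the muscle list. Mylpf and the motif were chosen after values were seen.

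All 18 tested endothelial markers had a positive difference (median 0.74), and 7 passed, all higher in iWAT. Pecam1, an adhesion protein of endothelial junctions, read 11.07 to 11.49 in iWAT and 9.71 to 10.12 in eWAT (1.23 ± 0.14, 2.34-fold, adjusted p = 0.00331). Tie1, an endothelial receptor kinase, differed by 1.18 ± 0.15 and the junction protein Cldn5 by 1.08 ± 0.17. Egfl7 differed by 0.99 ± 0.11, but another of its probes gave the opposite direction. Without mouse 20, 13 endothelial members passed, and without mouse 17 or 18, 4 and 3.

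Of 10 Schwann cell markers, the glia of peripheral nerve, 4 were higher in iWAT and 2 in eWAT, with differences over the list from -1.47 to 3.44. Among those higher in iWAT, periaxin (Prx), a protein of myelinating Schwann cells, differed by 0.73 ± 0.13, and Ncmap was at least 1.16-fold higher. The 2 members higher in eWAT were Pmp22 (-0.72 ± 0.18) and Egr2 (-1.47 ± 0.26). The cell source of the members was not tested, in either direction. Without mouse 17 or mouse 18, 3 and 2 of the list were higher in iWAT. Among erythroid markers 1 of 7 passed, the globin Hba-a1 (0.70 ± 0.11).

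Most adipocyte genes did not pass. Of 31 adipocyte identity genes, 7 were higher in iWAT and none in eWAT, with a median of 0.31. With equal medians 2 passed. Cidea, a lipid droplet protein of thermogenic adipocytes, read 9.73, 8.76, 8.60 and 8.05 in iWAT and 6.46 to 6.73 in eWAT (2.21 ± 0.24, 4.64-fold, adjusted p = 0.00311). The imprinted gene Nnat differed by 1.29 ± 0.22, the droplet coat Plin1 by 0.86 ± 0.19 and hormone-sensitive lipase (Lipe) by 0.85 ± 0.20. Adiponectin (Adipoq, 0.25, adjusted p = 0.251), leptin (Lep, -0.15, adjusted p = 0.573), Pparg (0.36, adjusted p = 0.187) and the glucose transporter Slc2a4 (1.02, adjusted p = 0.0547) did not pass. A further Pparg probe gave the opposite direction. The list mean in iWAT was 11.09, 10.83, 10.63 and 10.33 in mice 16, 17, 18 and 20, the reverse of their lymphocyte order, and 10.09 to 10.50 in eWAT. Without mouse 20, 18 of the 31 passed, without mouse 16 it was 4, and without mouse 17 or mouse 18 Cidea was the 1 gene that passed. The spread over all 16 arrays, with no block, also gave 1 call.

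All 24 tested genes of lipolysis had a positive difference, and 8 passed (median 0.43). Receptors that restrain lipolysis were among them. Adra2a, the alpha2A adrenergic receptor, read 7.09 to 7.93 in iWAT and 5.98 to 6.50 in eWAT (1.24 ± 0.21, adjusted p = 0.0133). The adenosine receptor Adora1 differed by 0.97 ± 0.17, the niacin receptor Hcar2 by 0.85 ± 0.20 and the short-chain fatty acid receptor Ffar2 by 0.79 ± 0.17. The beta3 receptor Adrb3 (0.09, adjusted p = 0.791), which starts lipolysis, the lactate receptor Hcar1 (0.56, adjusted p = 0.0792) and the triglyceride lipase Pnpla2 (0.43, adjusted p = 0.0727) did not pass. Prkaca, the catalytic subunit of protein kinase A, differed by 0.62 ± 0.12. Under equal medians 4 of the list passed, 19 passed without mouse 20, and without mouse 16, 17 or 18 it was 3, 1 and 1.

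Of 21 tested thermogenic genes, 6 were higher in iWAT and 2 in eWAT. Ucp1, Dio2, Prdm16, Elovl3, Zic1, Slc27a2, Tmem26, Ppara and Gk were on the array but detected too seldom to be tested. Beside Cidea, Tbx1, a T-box marker of beige cells, read 6.58, 6.16, 6.48 and 7.84 in iWAT and 4.51 to 5.22 in eWAT (1.97 ± 0.34). The coactivators Ppargc1b and Ppargc1a, which drive mitochondrial genes, differed by 0.91 ± 0.12 and 0.73 ± 0.14. The 2 genes higher in eWAT belong to creatine cycling, namely the transporter Slc6a8 (-2.07 ± 0.17, 4.21-fold) and mitochondrial creatine kinase Ckmt1 (at least 1.77-fold). The count toward iWAT was 3 without mouse 17, 1 without mouse 18 and 10 without mouse 20, and that toward eWAT was 2 each time.

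Mitochondrial pathways showed calls toward iWAT only, all under 2-fold. In the tricarboxylic acid cycle 7 of 18 passed (median 0.36), led by citrate synthase (Cs, 0.66 ± 0.12) and Idh3g (0.53 ± 0.11). Fatty acid oxidation had 5 of 24 (Cpt2, Acadvl, Eci1, Etfb and Crat, 0.54 to 0.69), oxidative phosphorylation 5 of 32 (among them Ndufa9, Uqcrc1, Uqcrc2 and Cyc1, 0.44 to 0.51). For all 3 pathways 0 passed with arrays scaled to equal medians, and 0 passed without mouse 16, 17 or 18. Under equal medians the oxidative phosphorylation median turned from 0.18 to -0.03. Without mouse 20 the counts were 12, 15 and 7. The mean of the tricarboxylic acid cycle list in iWAT was 11.38, 11.09, 11.10 and 10.86 in mice 16, 17, 18 and 20, against 10.68 to 10.89 in eWAT, so mouse 20 lay within the eWAT range. The parts of lymphoid and muscle tissue in these differences were not tested.

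Of 24 genes of triglyceride synthesis and uptake, 6 were higher in iWAT (median 0.11), among them Agpat2 (0.88 ± 0.15), Gpat3 (0.87 ± 0.21) and Gpihbp1, which holds lipoprotein lipase on capillaries (0.96 ± 0.22). Of 16 de novo lipogenesis genes, 1 passed, the citrate carrier Slc25a1 (1.00 ± 0.17). With equal medians the triglyceride list had 1 call in each direction and the lipogenesis list 0, and both medians turned slightly negative (-0.01 and -0.08). Without mouse 16, 17 or 18 the triglyceride list had 1, 0 and 0 calls toward iWAT, and without mouse 20 it had 9. Branched-chain amino acid catabolism had 2 of 18 higher in iWAT, Bcat1 (0.84 ± 0.20) and Ivd (0.82 ± 0.15). Among insulin signalling genes 5 of 22 were higher in iWAT, including Igfbp3 (1.19 ± 0.16) and the receptor adaptor Grb14 (1.05 ± 0.23), and Igf1 was higher in eWAT (-0.56 ± 0.14). Without mouse 17 or mouse 18 the amino acid list had 0 calls and the insulin list 1, and without mouse 20 both had 8.

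Secreted products of adipocytes differed by gene. Agt (angiotensinogen), the precursor of angiotensin, read 6.68 to 7.38 in eWAT, was detected on no iWAT array and was at least 3.86-fold higher in eWAT. Metrnl was also higher in eWAT (-1.20 ± 0.22), whereas Nrg4 (0.89 ± 0.20) and Bmp3 (0.73 ± 0.19) were higher in iWAT. In all, 3 of 18 adipokine and expansion genes were higher in iWAT and 2 in eWAT, and under equal medians 0 and 2. The iWAT count was 0 without mouse 17 or mouse 18 and 7 without mouse 20.

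Stromal and matrix genes differed in both directions. Of 24 progenitor and fibroblast markers, 7 were higher in eWAT and 3 in iWAT, and of 36 collagen and matrix genes, 8 and 2. Timp1, an inhibitor of metalloproteinases, read 10.18, 10.24, 10.57 and 9.36 in eWAT and 7.14, 7.16, 7.07 and 5.94 in iWAT (-3.26 ± 0.13, 9.58-fold, adjusted p = 0.000221). Fibulin 1 (Fbln1), a matrix glycoprotein, differed by -2.32 ± 0.30 and fibrillin 1 (Fbn1) by -1.11 ± 0.18. Tenascin C (Tnc), a matrix protein of remodelling tissue, was higher in iWAT (1.57 ± 0.14). Col1a1, Col3a1 and Col6a1, the main fibrillar and beaded collagens tested, did not pass (0.36, -0.34 and -0.35). The progenitor median was 0.05, and it was negative under equal medians (-0.16) and without mouse 16, 17 or 18. Without mouse 18, 0 progenitor markers passed, and 3 matrix genes were higher in eWAT.

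Genes of retinoid metabolism differed in both directions. Adh7, an alcohol dehydrogenase that oxidizes retinol, read 8.25, 8.34, 8.10 and 6.98 in iWAT and 5.18 to 5.62 in eWAT (2.46 ± 0.28, 5.50-fold, adjusted p = 0.00347). Aldh1a3, which makes retinoic acid, was higher in eWAT (-1.61 ± 0.28). In all 2 of 19 were higher in iWAT and 5 in eWAT. Among steroid genes 3 of 13 were higher in iWAT, including Hsd11b1, which regenerates glucocorticoid (0.66 ± 0.16). Without mouse 17 or mouse 18 the retinoid list had 1 call in each direction, and the steroid list had 1 and 0 toward iWAT.

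Fosb, an immediate early transcription factor, was among the largest differences toward iWAT outside lymphoid and muscle genes. It read 9.88, 10.80, 11.75 and 9.72 in iWAT and 5.75, 6.87, 6.68 and 7.06 in eWAT (3.94 ± 0.36, 15.4-fold, adjusted p = 0.00182). Of 18 immediate early genes, 3 were higher in iWAT and 2 in eWAT. Egr1 (1.02 ± 0.21) and Ccn1 (1.10 ± 0.29) were the others higher in iWAT, and Atf3 (-2.13 ± 0.26) and Egr2 were higher in eWAT. Fos itself did not pass (-0.05). Of 16 interferon response genes, 5 were higher in iWAT, led by Usp18 (1.37 ± 0.25), and Ifih1 was higher in eWAT (-0.84 ± 0.22). Cell cycle genes had 2 of 19 calls, Pcna (-1.26 ± 0.15) and Ccnb1 (-0.82 ± 0.15), both higher in eWAT. Of 15 clock genes, Nr1d1 was higher in iWAT (0.87 ± 0.17) and Npas2 in eWAT (at least 1.02-fold). Without mouse 18, 0 interferon and 0 clock genes passed, and Fosb was the 1 immediate early gene called toward iWAT.

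**Figure D4:**
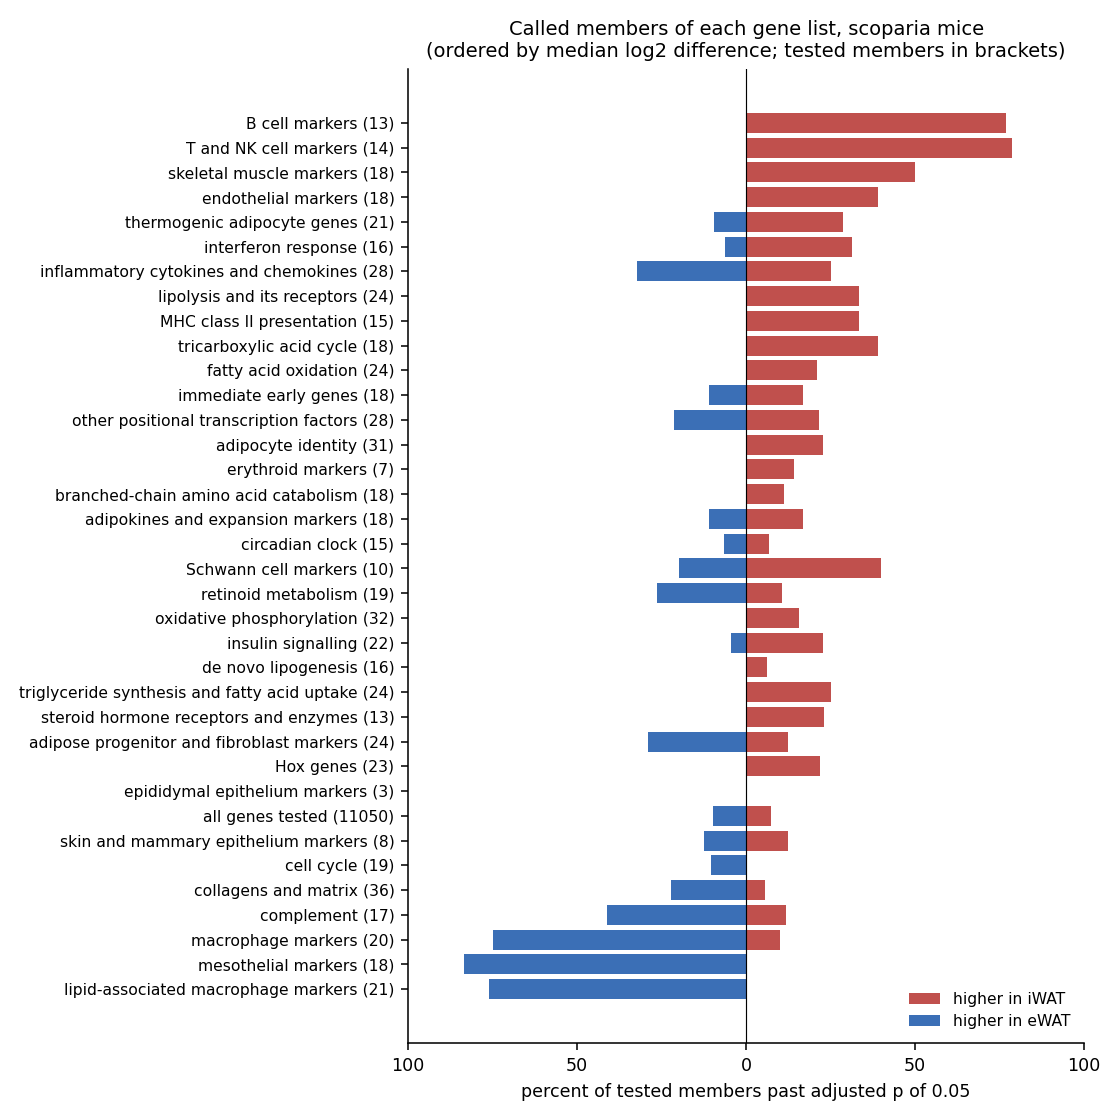
Percent of the tested members of each gene list (number in brackets) that passed an adjusted p of 0.05 toward iWAT (red, right) or eWAT (blue, left), with lists ordered by their median log2 difference. The bars for all 11050 genes (7.37% and 9.71%) give the background. Mesothelial and lipid-associated macrophage lists reach farthest to the left and B and T cell lists farthest to the right.

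The depot difference of control mice, which share no array with the scoparia mice, was set beside it. There 405 of 11050 genes (3.67%) passed, 166 higher in iWAT (1.5%) and 239 in eWAT (2.16%). Of the 1887 scoparia calls, 1693 (89.7%) had the same sign in control mice, against 66.1% of all genes, and of the 821 at least 2-fold, 799 (97.3%). Calls in both diets numbered 239, which is 12.7% of the scoparia calls and 59.0% of the control calls, and 238 of them had the same sign. Control counts depended on single mice, at 151, 2022, 11 and 20 without mouse 1, 2, 3 and 4. Upk1b, Hoxc10 and Fosb differed by -4.79, 4.48 and 4.42 in control mice, Trem2 by -2.71 and Fcmr by 3.80, each a call. Btla differed by 0.87 (adjusted p = 0.336) and was not a call.

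**Figure D5:**
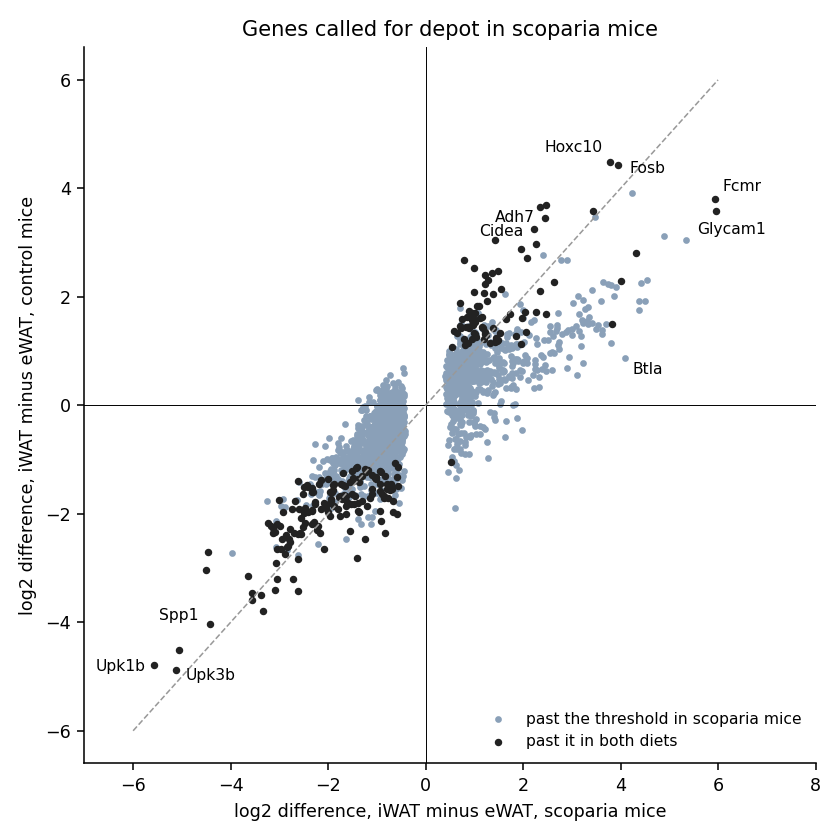
Log2 difference between depots in scoparia mice (horizontal axis) against that in control mice (vertical axis) for the 1887 genes called in scoparia mice, 1 point per gene. Black points (239) were also called in control mice, and the dashed line marks equal differences. Points lie mostly in the lower left and upper right, and many genes high in iWAT, such as Btla, lie below the line.

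Whether the depot difference itself differed between the diets was tested over all 16 arrays with the mouse as a block. No gene passed (0 of 11050, 0%, limma), the smallest adjusted p was 0.134 and 1867 genes had an unadjusted p under 0.05. Without the block 6 genes passed, and without control mouse 3 424 passed. By p, the largest positive differences (scoparia minus control) were those of Larp4b (1.94 ± 0.27), Bbx (2.01 ± 0.30), Mindy2 (2.23 ± 0.38), Rhbdl2 (2.48 ± 0.43), Zfp157 (1.89 ± 0.34) and Clcn3 (1.42 ± 0.25). Among the negative ones were Gsc (-1.90 ± 0.29), Ctcfl (-2.71 ± 0.49), Naprt (-1.12 ± 0.22), Hps5 (-2.04 ± 0.40) and Bola1 (-1.09 ± 0.22), all at an adjusted p of 0.134. Of these genes, only Gsc, a homeobox factor, passed for depot in scoparia mice (0.79 ± 0.18, adjusted p = 0.0317). Btla, the gene with a large gap above, had a difference of 3.21 ± 0.83 (adjusted p = 0.182), and Trem2 one of -1.75 ± 0.60 (adjusted p = 0.222). With all 8 mice and the block, no depot difference described above was thus shown to depend on the diet.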

How the data were processed

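RNA from 16 fat samples was amplified and hybridised to Illumina bead arrays, per the labels' protocols. The deposited scanner values, per the file headers, are mean bead intensity on a linear scale, with a detection p-value beside each, for 25697 probes. The authors also deposited intensities that they had normalized, by steps not stated. GenomeStudio and limma 3.18.13 appear, without a role, in the submitters' processing notes.

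Scanner intensities were corrected and normalized with neqc (limma 3.58.1, R 4.3.3; offset 16, quantile, log2). Probes with detection p under 0.05 on at least 4 of 16 arrays were kept (15052), and the brightest probe of each of 11050 genes was tested. Symbols were updated through RefSeq gene tables (GRCm38.p6, names and printed promoters only): 20736 probes matched by symbol, 3872 by a synonym, 104 were ambiguous and 985 unmatched. For the array itself no build is stated.

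The fit used limma's lmFit and eBayes on the 8 scoparia arrays with the mouse as a block, Benjamini-Hochberg over all genes and adjusted p under 0.05. The pairing comes from the animal numbers in the labels, which do not state that depots share an animal. Deviations of a mouse's arrays from the group means correlated at 0.25, 0.034, 0.249 and 0.0676. Nothing in the labels relates RNA to tissue pieces. The spread behind each p is that between these samples, and part of it may be technical. On simulated data for the scoparia comparison (11050 genes), 50% of changes of log2 1 and 90% of changes of log2 2 were recovered, 100 genes each, with 10 false calls. The simulation changed only these genes, a smaller share than the 17.1% called, and drew noise separately for each gene. Recovery in the real comparison may thus differ.

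The comparison, gene lists and their members were chosen with earlier results of these data known. Named genes were the 15 largest differences in each direction among calls whose depots did not overlap (1 predicted name passed over in each), the 6 leading members by p of every list, more for Hox, positional, mesothelial, adipocyte and lipolysis lists, and 6 by p in each direction for the diet difference. Names outside the rule are marked, apart from list members given because they did not pass, which were also chosen after values were seen. A few genes that this rule names are not reported here, though list counts include them. Alternatives covered block, scaling, background, filter, probe choice, weights and each mouse left out.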

Additional observations from a re-analysis of the deposited data

Results flagged for a closer look

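Within each depot of the scoparia mice, the highest and lowest of the 4 arrays were compared with the other 3 for each named gene and each list mean, and 21 of 468 groups had 1 array far from the rest (4.49%, where chance gives about 1 in 20). Of these 21, 7 were the iWAT array of mouse 20. The iWAT array of mouse 16 was lowest for C1qa (8.53, others 8.87 to 8.91) and Itgax (5.68, others 6.24 to 6.29). The iWAT array of mouse 16 was highest for Clec11a (7.3, others 6.56 to 6.64) and Tie1 (8.45, others 8.03 to 8.1). The iWAT array of mouse 17 was highest for Lrrn4 (4.58, others 4.37 to 4.39). The iWAT array of mouse 18 was highest for Fcgr3 (9.45, others 8.99 to 9.05) and the mean of interferon response (8.86, others 8.52 to 8.56). The iWAT array of mouse 20 was lowest for Agpat2 (9.92, others 10.85 to 11.03), Aldh1a3 (5.9, others 7.24 to 7.4), Pmp22 (11.2, others 11.98 to 12.12), Robo4 (11.84, others 12.23 to 12.27), Timp1 (5.94, others 7.07 to 7.16), Tnfrsf11b (4.45, others 4.66 to 4.7) and the mean of collagens and matrix (9.8, others 10.46 to 10.53). The eWAT array of mouse 16 was lowest for Ccl6 (10.04, others 10.43 to 10.45) and Timp2 (12.95, others 13.34 to 13.4). The eWAT array of mouse 16 was highest for Slc25a1 (11.65, others 10.95 to 11.07), the mean of de novo lipogenesis (10.81, others 10.3 to 10.35) and the mean of steroid hormone receptors and enzymes (8.13, others 7.99 to 8.0). The eWAT array of mouse 20 was highest for Hoxc10 (4.71, others 4.46 to 4.47) and the mean of circadian clock (8.37, others 8.27 to 8.28). Lrrn4 and Tnfrsf11b in iWAT and Hoxc10 in eWAT were detected on no array of that depot. Their flags thus concern signal at the background level.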

How the results depend on the processing

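The number of genes called for depot in scoparia mice, 1887 with the block, was 1170 with 4 group means over 16 arrays and no replicate block, 1103 with the replicate block on all 16 arrays and 3709 with array weights. Leaving out 1 mouse gave 462 to 2793 calls. The remaining settings stayed within 1.5 times the count. In control mice the 405 calls became 718 without the replicate block, 725 with equal medians, and 11 to 2022 with 1 mouse left out. The diet difference, with 0 calls, had 6 without the replicate block and 0 to 424 with 1 mouse left out. Of the 189 named genes that passed for depot, 74 did so in every one of the 18 settings that gave a value and 0 changed sign. Losses numbered 60 with either fit over 16 arrays, 41 with equal medians, 112 without mouse 18, 83 without mouse 17, 50 without mouse 16 and 6 without mouse 20. Among genes that did not pass, leaving out 1 mouse moved Adrb3 between -0.07 and 0.33 and Lep between -0.25 and 0.03, so that each changed sign once, and Pparg turned to -0.11 with the median over its probes. Of the 35 list medians, 12 comparisons with an alternative changed sign, mostly under equal medians. The cause of these shifts was not tested. Dim probes detected on no array of a depot allow bounds only, and 4 arrays per group limit calls of small differences.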
